A study of Mus musculus with 6 samples.

Results

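The Hox genes of the deposited tables were taken as every gene named Hoxa, Hoxb, Hoxc or Hoxd followed by a number alone, which left out antisense and other transcripts of the clusters. This gave 36 of 19069 genes. The GENCODE annotation of GRCm38 lists 39 such genes, and Hoxc11, Hoxc12 and Hoxd1 had no entry in the tables. The genes were taken by name and not by a measured value, although earlier results of these data were known when the choice was made. Colon tumors of mice given AOM/DSS, a carcinogen followed by an agent that inflames the colon, were dissociated, and viable cells negative for EPCAM, CD45 and CD31 were sorted one per well for SORT-seq. Each of 6 plates with 384 wells came from 1 mouse. FibCtrl mice (plates 1, 3 and 4) were negative for the Col6a1Cre transgene and kept Zeb1, and FibΔZeb1 mice (plates 2, 5 and 6) lacked Zeb1 in fibroblasts through Cre driven by the Col6a1 promoter. All mice were of C57BL/6 background with floxed Zeb1 (Zeb1 fl/fl), controls were Cre-negative littermates matched for age, both sexes were used, and the exact ages were not given in the sources used here. Stromal cells in which the Col6a1 promoter is not active keep Zeb1 in either genotype.

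Hox genes code for homeodomain transcription factors that give cells their place along the body axis. Mammals carry them in 4 clusters, HoxA to HoxD, in which genes with low paralog numbers act in anterior and genes with high numbers in posterior regions, in the order in which they lie on the chromosome. Adult fibroblasts keep a Hox pattern of the site they come from, and the hindgut, from which the distal colon forms, is a site of posterior Hox activity. HOX proteins bind DNA together with TALE homeodomain cofactors of the Pbx, Meis and Pknox families. Retinoic acid, made by Aldh1a enzymes and broken down by Cyp26 enzymes, turns on anterior Hox genes in the embryo.

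Wells holding fewer than 100 or more than 6000 genes, or 10% or more mitochondrial transcripts, were dropped, which left 1233 of 2304 (109 to 298 per plate). The total was 1575726 to 3699058 transcripts per plate. Wells were named from lists of 8 marker genes, none of them a Hox gene. By these lists 716 wells were stromal (23 to 222 per plate) and 351 were neutrophil (9 to 178 per plate), although the sort removed CD45-positive cells. A further 4 wells were squamous epithelium, 4 were other epithelium, and 158 were unassigned. The summed stromal markers ran from 38666 to 58221 CPM (counts for each 1000000 transcripts) in the stromal wells of a plate and from 1570 to 5994 in the neutrophil wells, whereas neutrophil markers stood at 101 to 461 and 63700 to 127629. No well passed as macrophage, lymphocyte, endothelial or glial cell. Of the stromal wells, 48 also held at least 4 of 12 epithelial genes (1 to 17 per plate), and results that move without them are marked. The flow-cell label of plate 6 differs from that of the other plates, so this sequencing run and its mouse cannot be told apart. All plates use the same 384 well names.

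The promoters of 4 Hox genes that differed between pericyte-gated and other stromal wells are shown. As described below, Hoxb4 and Hoxa9 were higher in pericyte-gated wells, and Hoxd11 and Hoxd13 were lower. Each promoter runs from 250 bases before to 50 bases after the RefSeq gene start on GRCm38.p6, in the direction of transcription. They lie at chr2:74667975-74668274 (plus strand) for Hoxd13, chr2:74679308-74679607 (plus strand) for Hoxd11, chr11:96318017-96318316 (plus strand) for Hoxb4 and chr6:52227321-52227620 (minus strand) for Hoxa9. Capitals mark TTTAT, the core letters that posterior HOX and CDX proteins prefer, or ATAAA, the same letters on the other strand.
Hoxd13: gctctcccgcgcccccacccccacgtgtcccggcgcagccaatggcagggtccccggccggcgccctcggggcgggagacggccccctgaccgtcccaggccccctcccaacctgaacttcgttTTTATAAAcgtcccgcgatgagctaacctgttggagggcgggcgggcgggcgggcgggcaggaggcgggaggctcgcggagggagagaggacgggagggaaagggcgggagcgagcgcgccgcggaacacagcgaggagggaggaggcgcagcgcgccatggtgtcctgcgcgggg
Hoxd11: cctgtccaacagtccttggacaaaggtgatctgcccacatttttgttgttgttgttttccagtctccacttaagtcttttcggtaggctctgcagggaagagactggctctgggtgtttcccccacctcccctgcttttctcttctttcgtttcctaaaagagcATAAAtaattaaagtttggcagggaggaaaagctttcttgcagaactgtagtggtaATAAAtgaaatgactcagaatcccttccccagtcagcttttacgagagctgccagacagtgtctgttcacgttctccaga
Hoxb4: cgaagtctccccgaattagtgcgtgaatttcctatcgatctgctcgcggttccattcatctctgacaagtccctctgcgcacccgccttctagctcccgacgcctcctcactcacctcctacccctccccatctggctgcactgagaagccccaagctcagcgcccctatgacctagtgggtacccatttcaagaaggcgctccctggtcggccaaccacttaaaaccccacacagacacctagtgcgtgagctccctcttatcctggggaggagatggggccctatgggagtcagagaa
Hoxa9: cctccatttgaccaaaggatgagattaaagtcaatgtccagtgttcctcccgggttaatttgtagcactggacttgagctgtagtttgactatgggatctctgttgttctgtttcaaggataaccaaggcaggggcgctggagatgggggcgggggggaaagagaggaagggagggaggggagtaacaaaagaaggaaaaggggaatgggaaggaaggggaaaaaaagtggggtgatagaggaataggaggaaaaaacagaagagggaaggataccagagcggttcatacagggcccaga
The Hoxd13 window holds both letter runs in overlap, and the Hoxd11 window shown holds ATAAA at 2 places. Hoxd11 has a second RefSeq start, whose window at chr2:74682073-74682372 holds neither. The Hoxb4 and Hoxa9 windows hold neither. RefSeq windows were given for 21 of the 36 Hox genes, in 23 entries. TTTAT on either strand was found in 9 of these 23 windows (39.1%), against 40.01% of 32851 promoters of all genes. CACCTG, the E-box letters that Zeb1 binds, was searched on both strands and was in 0 of 23 Hox windows, against 20.2% of all promoters. A match or its absence describes these letters only. Hoxb2, Hoxb3, Hoxb13 and Hoxc10 had no entry.

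Stromal wells carried a posterior Hox pattern. They held 2084 Hox transcripts, or 250 CPM (95% counting interval 240 to 261), and 35 of the 36 genes were detected, all but Hoxc5. Paralogs 9 to 13 made up 69.4% of these transcripts, paralogs 5 to 8 made up 13.1% and paralogs 1 to 4 made up 17.5%. CEL-Seq2 counts molecules at their 3′ ends, so that levels of different genes were compared in CPM without division by length. Intervals cover counting error only.

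HoxA, on chromosome 6 (52155590 to 52260880), gave 962 stromal transcripts. HoxD, on chromosome 2 (74668310 to 74765142), gave 626. HoxB, on chromosome 11 (96194316 to 96368256), gave 365 and HoxC, on chromosome 15 (102921103 to 103036852), gave 131. Within HoxA the level was highest at paralogs 9 to 11, and within HoxD it was highest at its posterior end. In HoxB it was highest at Hoxb2, with a lower level at Hoxb13. The grid of levels by cluster and paralog number shows these different shapes.

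**Figure D1:**
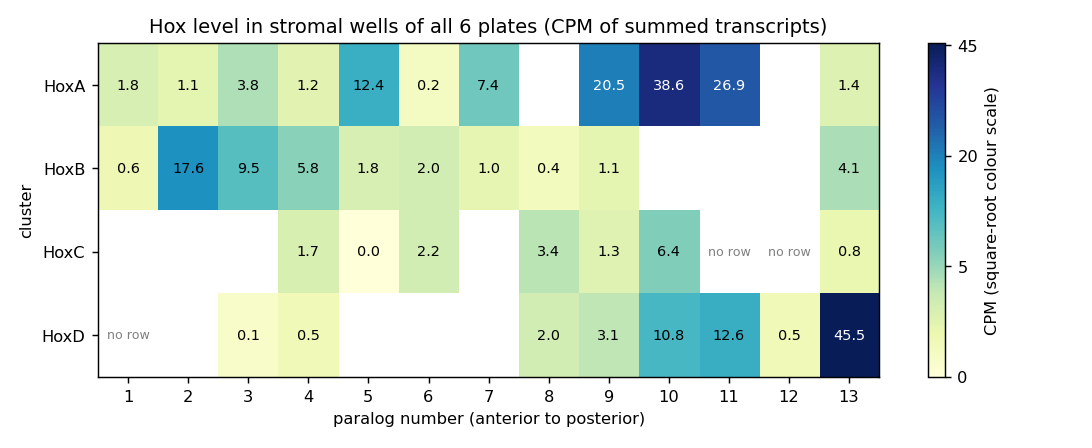
Pooled level of each Hox gene in the stromal wells of all 6 plates, with clusters as the y axis and paralog number from anterior to posterior as the x axis; each cell gives CPM and colour follows a square-root scale. Hoxd13 at 45.5 and Hoxa10 at 38.6 are the darkest cells, and white cells are positions with no gene or no entry.

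Pooled over wells, the gene with the highest level was Hoxd13, which patterns the end of the hindgut and the digits, at 45.5 CPM (41.0 to 50.3) with transcripts in 172 of 716 wells. Hoxa10, known for its role in the uterus, followed at 38.6 CPM (34.5 to 43.1) in 204 wells. The intervals of these neighbours overlap, and with plates weighted equally Hoxa10 stood at 41.3 ± 9.73 CPM and Hoxd13 at 39.3 ± 20.9 CPM (SD, n = 6). Hoxa11 stood at 26.9 CPM (23.5 to 30.6), Hoxa9 at 20.5 (17.6 to 23.8) and Hoxb2, a hindbrain segment gene, at 17.6 (14.9 to 20.7). Hoxd11 (12.6), Hoxa5 (12.4), Hoxd10 (10.8) and Hoxb3 (9.48) came next and had overlapping intervals. In all, 11 genes reached 50 stromal transcripts and together held 83.3% of the Hox transcripts. The lowest of them was Hoxc10 with 53 transcripts, and the next gene, Hoxb4, had 48. Only 19 of the 36 genes were detected on all 6 plates when every well was counted. Some of these had no stromal transcript on a plate, such as Hoxa4 on plate 6 and Hoxb7 on plate 3. In the annotation, Hoxa3 spans Hoxa4, Hoxa5 and Hoxa6, and Hoxd3 spans Hoxd4. Hoxc5 spans Hoxc6, Hoxc8 and Hoxc9 and overlaps Hoxc10, and Hoxa11 overlaps its antisense gene. The counts of these genes may be shared in part. Transcripts of Hoxa9, Hoxa10 and Hoxc4 may overlap other transcripts of the clusters, although the spans of these genes overlap no other Hox gene.

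By plate from 1 to 6, the stromal level of Hoxd13 was 65.3, 37.8, 48.3, 34.2, 47.1 and 2.76 CPM. Plate 6, with 23 stromal wells, held a single Hoxd13 transcript and stood apart from the other plates for this gene. Hoxa10 was at 29.2, 40.8, 42.6, 57.4, 33.6 and 44.2 CPM, and Hoxa11 was at 25.4, 33.5, 31.3, 23.1, 14.4 and 30.4 CPM. Both genes were present on every plate and plate 6 was inside the range of the rest. Hoxa9, a gene of blood progenitors and the posterior axis, was at 6.78, 18.9, 19.9, 30.2, 35.2 and 46.9 CPM and was lowest on plate 1 and highest on plate 6. Without the stromal wells with epithelial genes it fell to 16.1 CPM on plate 5 and was 44.8 on plate 6. Hoxb2 was at 11.4, 20.6, 31.3, 21.1, 14.4 and 22.1 CPM. The summed level of all Hox genes varied less, from 226 CPM on plates 1 and 2 to 336 on plate 5.

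**Figure D2:**
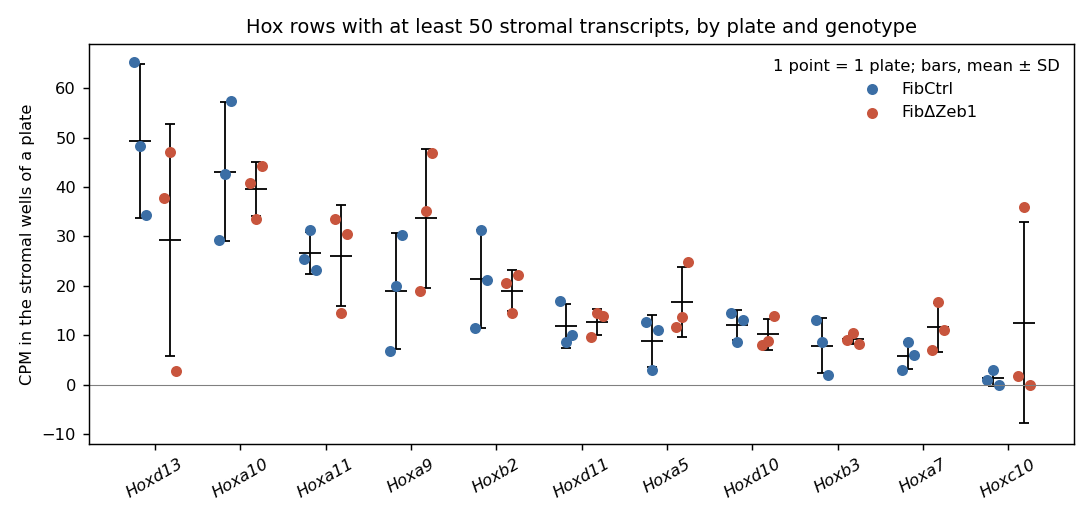
Level in CPM (y axis) of the 11 Hox genes with at least 50 stromal transcripts, 1 point per plate, FibCtrl in blue and FibΔZeb1 in red, with bars for mean ± SD of 3 plates. The points of both genotypes overlap for each gene, and the low Hoxd13 point (2.76) and the high Hoxc10 point (35.9) are plates 6 and 5.

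Hox transcripts were higher in stromal than in neutrophil wells on each plate. The neutrophil wells held 36 Hox transcripts among 613225, at 0, 42.4, 38.2, 0, 133 and 87.2 CPM on plates 1 to 6. The stromal wells of the same plates held 226, 226, 273, 259, 336 and 268 CPM. The lowest stromal plate was above the highest neutrophil plate, and the mean difference within plates was 214 CPM (SD 30.8, range 181 to 259, higher on 6 of 6 plates). The two-sided exact sign-flip permutation test gave p = 0.03125, the smallest that 6 plates allow, and 0.0938 after Benjamini-Hochberg adjustment over 3 tests of summed values. The zeros on plates 1 and 4 rest on 9 and 17 neutrophil wells and allow up to 181 and 124 CPM. Pooled over plates, the stromal level was 4.26 times the neutrophil level (3.07 to 6.10).

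In edgeR's quasi-likelihood fit with plate as a block, 4 Hox genes had enough counts to be tested and passed as higher in stromal wells, where 68.9% of the 7248 genes tested passed and 49.5% passed as higher. Most counts come from the deeper stromal wells, through which these genes passed the filter, so their shared direction is a description only. Hoxa11 had 224 stromal transcripts and 0 among the 613225 of neutrophils, which is at least 5.50-fold higher (3 counts over the pooled wells as floor, adjusted p = 0.00014). Hoxa10 was higher by 1.69 on the log2 scale (SE 0.65, adjusted p = 0.015), Hoxa9 by 2.21 (SE 0.86, adjusted p = 0.016) and Hoxd13 by 1.40 (SE 0.66, adjusted p = 0.048). The median of all genes in this fit was 1.13, so that the values of Hoxa10 and Hoxd13 lie close to the middle of all genes. No Hox gene was called without wells that held Ptprc or Epcam, where only 1 could be tested, nor without plate 2, where 3 could. Hoxb13, known from the prostate and the hindgut epithelium, had the opposite order in the pooled counts, with 8 neutrophil transcripts (13.05 CPM) against 34 stromal ones (4.08 CPM), a stromal to neutrophil ratio of 0.313 (0.142 to 0.782) by counting alone. By plate it was higher in stromal wells on 3 and lower on 3, and 6 of the 8 were on plate 6.

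Neutrophil wells were shallower, with medians of 1213 to 2641 transcripts per plate against 6448 to 15773 in stromal wells. At full depth 78.1% of stromal and 9.69% of neutrophil wells held any Hox transcript. After each well was thinned to 500 molecular barcodes, which left out 26 stromal and 17 neutrophil wells, these shares were 14.2% of 690 (11.7 to 17.0, exact binomial interval) and 2.69% of 334 (1.24 to 5.05). By plate the thinned shares ran from 12.4% to 18.5% in stromal and from 0% to 6.45% in neutrophil wells, so the plates did not overlap at equal depth.

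**Figure D3:**
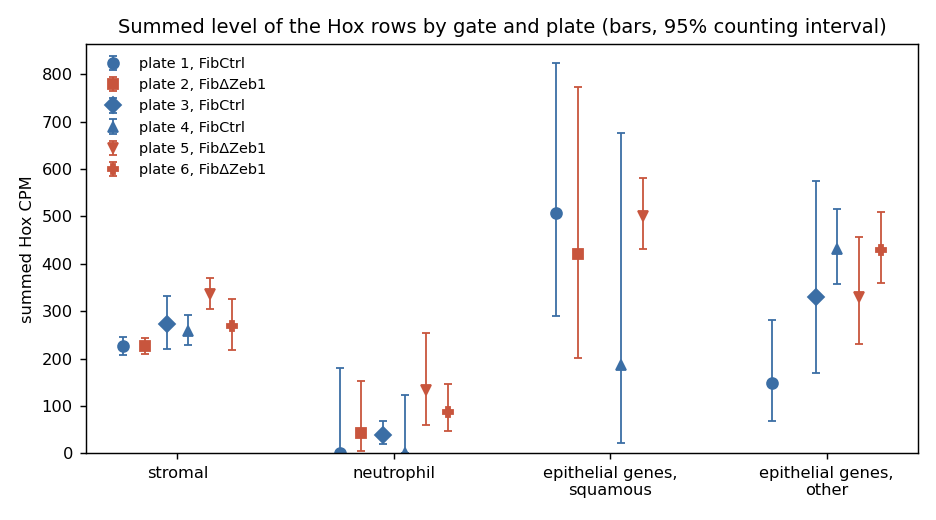
Summed level of the Hox genes in CPM (y axis) by gate (x axis), 1 symbol per plate with its 95% counting interval, FibCtrl in blue and FibΔZeb1 in red. Stromal plates lie at 226 to 336, neutrophil plates at 0 to 133, and wells with epithelial genes at 149 to 507. The 48 stromal wells with epithelial genes are in both the stromal and an epithelial gate.

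Wells with epithelial genes, 48 of which were also gated as stromal, differed from the remaining stromal wells in which posterior gene they carried. These wells held at least 4 of 12 epithelial genes, a gate chosen after the data were seen because the squamous and the other epithelial lists named only 4 wells each, too few to test, and their values are a description. The 29 squamous wells, 23 of them on plate 5, held 490 Hox CPM (426 to 561) and the 76 others held 391 (348 to 437), against 241.4 (231 to 253) in the 668 stromal wells without epithelial genes. By plate, summed stromal markers ran from 937 to 9337 CPM in the squamous wells and from 1071 to 41742 in the others. Their Hox levels can therefore not be read as those of epithelium alone. Hoxb13 stood at 84.0 CPM (58.8 to 116) in squamous wells and at 63.6 (47.2 to 83.8) in the others. The 668 stromal wells had 11 Hoxb13 transcripts (1.43 CPM). Hoxa9 stood at 119 CPM (88.6 to 156) in squamous wells and 56.0 (40.7 to 75.1) in the others, against 17.1 (14.3 to 20.3) in these stromal wells. Hoxd13 was at 74.6 CPM (51.1 to 105) and 35.6 (23.7 to 51.5), against 47.5 (42.7 to 52.6). Hoxc13, a gene of hair and nails, had 10 transcripts in 3 squamous wells. Of the 34 Hoxb13 transcripts in all stromal wells, all but 11 were in the 48 wells that also held epithelial genes, and whether those wells held 2 cells was not tested. By plate, the stromal level of Hoxb13 was 2.97, 0.996, 2.84, 14.1, 1.60 and 19.3 CPM, highest on plates 4 and 6. Plates 1 to 6 had 4, 1, 2, 17, 13 and 11 stromal wells with epithelial genes, so plate 5 had more of them than plate 6 but a lower Hoxb13 level.

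Pericyte-gated wells had a Hox pattern of their own, with anterior HoxB genes higher and the posterior HoxD genes few or at 0. The gate used 8 markers of mural cells of small vessels (such as Rgs5, Notch3 and Kcnj8). On the 4 plates with at least 5 such wells (1, 2, 4 and 5), 84 wells with 1006151 transcripts were compared with 581 other stromal wells with 6611236 transcripts in edgeR's quasi-likelihood fit with plate as a block. Of 12 Hox genes tested, 5 were higher and 2 were lower in pericyte-gated wells, where 16.7% of 9779 genes passed, 6.91% as higher and 9.8% as lower. Genes of low counts can enter this fit through the gate in which they are high. Without the filter on low counts, 6 of 35 Hox genes passed, 4 as higher and 2 as lower. In that fit 10.5% of 16779 genes passed, 3.84% as higher and 6.69% as lower. The median log2 difference of the 35 was 0.38, against -0.41 over all genes.

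Among the anterior genes, Hoxb2 had 81 transcripts in the 84 pericyte-gated wells and 47 in the 581 others, which is 80.5 against 7.11 CPM (ratio 11.3, 7.81 to 16.6). On plates 1, 2, 4 and 5 it was at 71.7, 76.7, 132 and 0 CPM in pericyte-gated wells and at 7.25, 4.28, 3.501 and 14.8 CPM in the others. It was thus higher on 3 of 4 plates, and plate 5 had only 6 pericyte-gated wells (log2 difference 3.401, SE 0.46, adjusted p = 4.6e-09). Hoxb4 was at 32.6, 17.7, 21.9 and 53.03 CPM against 5.44, 2.14, 1.17 and 4.12 CPM. It was higher on 4 of 4 plates without overlap (22 against 23 transcripts, log2 difference 2.90, SE 0.74, adjusted p = 0.0019). Hoxb3 was at 58.6, 19.2, 7.31 and 26.5 CPM against 9.97, 5.997, 1.17 and 9.88 CPM, also higher on each plate (24 against 49 transcripts, log2 difference 1.83, SE 0.63, adjusted p = 0.030). Hoxb2, Hoxb3 and Hoxb4 are neighbours on chromosome 11.

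From HoxA, Hoxa5, a gene of lung and foregut mesenchyme, was at 97.7, 17.7, 7.31 and 26.5 CPM against 6.80, 9.85, 11.7 and 13.2 CPM. It was higher on 3 of 4 plates, and 15 of its 29 pericyte-gated transcripts were on plate 1 (log2 difference 1.55, SE 0.57, adjusted p = 0.047). Hoxa9 was at 32.6, 44.2, 51.2 and 26.5 CPM against 4.99, 11.6, 26.8 and 35.4 CPM, higher on 3 of 4 plates (43 against 104 transcripts, log2 difference 1.35, SE 0.46, adjusted p = 0.027). Hoxa3 and Hoxa7 were higher in pericyte-gated wells on 4 of 4 plates but were not among the genes that passed. The summed level of all Hox genes was also higher there on 4 of 4 plates. Hoxa10 (26.8 against 39.9 CPM) and Hoxa11 (39.8 against 24.5 CPM) did not pass, with log2 differences of -0.59 (SE 0.42) and 0.57 (SE 0.43). The posterior genes of HoxA and HoxD were thus not alike in pericyte-gated wells.

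Hoxd13 had 0 transcripts in the pericyte-gated wells of these plates and 361 in the others, at 69.8, 48.8, 39.7 and 48.6 CPM by plate. This is at least 18.3-fold lower (adjusted p = 1.6e-09). Hoxd11, whose promoter is shown above with that of Hoxd13, had 0 against 97 transcripts, at 18.1, 12.4, 11.7 and 14.8 CPM in the others, which is at least 4.92-fold lower (adjusted p = 0.0021). Both floors are 3 counts over the pooled wells. Hoxd10 had 3 against 79 transcripts, a ratio of 0.25 (0.0504 to 0.756) by counting, and did not pass (adjusted p = 0.21). In the 4 pericyte-gated wells of plate 3, which did not enter the fit, 1 Hoxd13 transcript was found. Over all 92 pericyte-gated wells, HoxD genes made up 1.89% of Hox transcripts and HoxB genes 41.6%. Paralogs 1 to 4 made up 45.4% there and paralogs 9 to 13 made up 36.8%.

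Hoxb2, Hoxb4 and Hoxd13 passed under all 12 alternatives fitted. Without plate 1 or without plate 2 only these 3 of the 7 genes passed. Hoxa5 passed in 4 of 12, Hoxa9 in 8 of 12, Hoxb3 in 8 of 11 and Hoxd11 in 7 of 8 alternatives in which each could be tested.

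**Figure D4:**
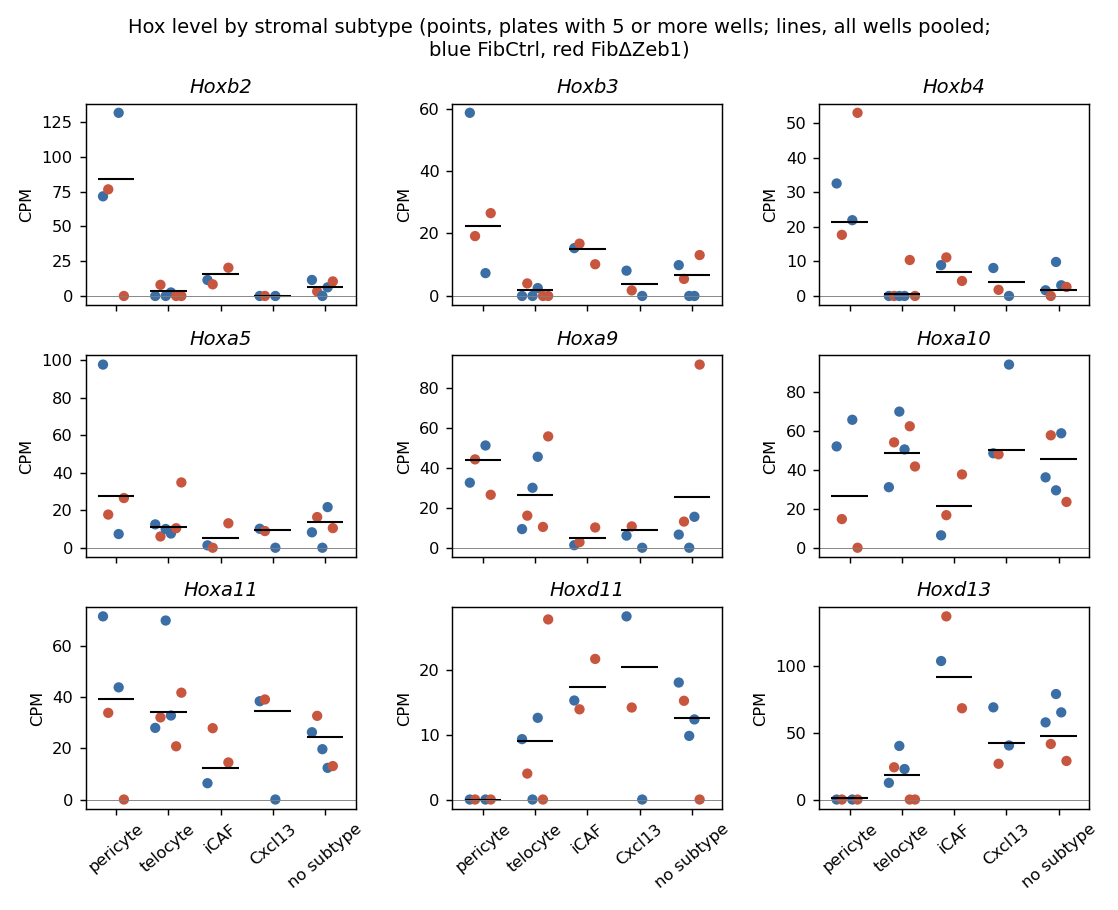
Level in CPM (y axes, scaled for each gene) of 9 Hox genes in the wells of each stromal subtype (x axes), with points for plates with at least 5 wells, FibCtrl in blue and FibΔZeb1 in red, and lines for all wells pooled. Hoxb2, Hoxb3 and Hoxb4 are highest in pericyte-gated wells, where the Hoxd11 and Hoxd13 points are at 0, and the Hoxd13 line is highest in iCAF-gated wells at 91.1.

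iCAF-gated wells, named from markers of inflammatory and adventitial fibroblasts (such as Pi16, Ptx3 and Clec3b), were the highest in Hoxd13. On plates 1, 2 and 5, Hoxd13 was at 103, 137 and 68.2 CPM in these 170 wells and at 46.3, 24.5 and 21.4 CPM in the 405 other stromal wells. The groups did not overlap (177 against 150 transcripts, ratio 3.09, 2.47 to 3.87). The edgeR fit with plate as a block gave a log2 difference of 1.96 (SE 0.28, adjusted p = 0.0011). It was 1.69 (adjusted p = 0.00095) with pericyte-gated wells left out of the comparison. Hoxa9 was at 1.28, 2.79 and 10.2 CPM against 9.52, 21.1 and 65.8 CPM, lower on 3 of 3 plates (9 against 108 transcripts, log2 difference -2.53, SE 0.50, adjusted p = 0.0072). Without stromal wells with epithelial genes Hoxa9 did not pass (log2 difference -1.75, SE 0.59, edgeR adjusted p = 0.095). With pericyte-gated wells left out its counts were too few for the fit, and the ratio was 0.268 (0.118 to 0.537) by counting. Of 12 Hox genes tested, these 2 passed, in a fit in which 10.7% of 8776 genes passed, 5.4% as higher and 5.26% as lower. HoxD genes made up 50.7% of the Hox transcripts of all 182 iCAF-gated wells.

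Telocyte-gated wells, named from markers of subepithelial fibroblasts that release Wnt and BMP ligands (such as Wnt5a, Bmp7 and Foxl1), were lower in Hoxb2 and Hoxd13 than the other stromal wells. Over 6 plates, 100 of these wells held 5 Hoxb2 transcripts and 616 other stromal wells held 142. Hoxb2 was at 0 to 8.03 CPM by plate against 13.2 to 43.7 CPM, without overlap (log2 difference -3.10, SE 0.66, adjusted p = 0.0072). Hoxd13 was at 12.5, 24.1, 40.02, 22.8, 0 and 0 CPM against 73.6, 40.6, 51.6, 41.8, 51.1 and 4.57 CPM on plates 1 to 6, lower on 6 of 6 plates (log2 difference -1.40, SE 0.40, adjusted p = 0.040). Of 5 Hox genes tested in edgeR, these 2 passed, where 9.84% of 7868 genes passed, 4.09% as higher and 5.74% as lower. Hoxd13 passed in 6 of 15 alternatives. Without pericyte-gated wells in the comparison its log2 difference was -1.71 (adjusted p = 0.0083), and Hoxb2, with 5 against 48 transcripts, was not tested. Its ratio was then 0.379 (0.118 to 0.948) by counting alone, against 0.154 (0.0491 to 0.367) with these wells, and it was lower on 5 of 6 plates rather than on each. HoxA genes made up 73.0% of Hox transcripts in telocyte-gated wells. Hoxa10, at 48.9 against 36.3 CPM, did not pass (log2 difference 0.26, SE 0.26).

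Cxcl13-gated wells, named from Cxcl13, Grem1 and other genes of fibroblasts near lymphoid tissue, held no Hoxb2 transcript. On plates 1, 2 and 4, 85 of these wells had 0 Hoxb2 transcripts and 429 other stromal wells had 110, at 14.5, 25.3 and 22.9 CPM. This is at least 7.92-fold lower, and it was the single Hox gene of 6 tested that passed (edgeR adjusted p = 0.0041), where 7% of 8760 genes passed, 2.42% as higher and 4.58% as lower. With pericyte-gated wells left out the counts were 0 against 29, at least 2.56-fold lower, and Hoxb2 was not tested. Without plate 2 it did not pass. Hoxd13 (46.01 against 47.8 CPM) and Hoxa11 (36.3 against 27.3 CPM) did not pass, with log2 differences of -0.15 (SE 0.30) and 0.34 (SE 0.40). The subtype comparisons share wells, since each subtype sits among the other stromal wells of the rest.

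Most HoxC transcripts came from 1 mouse. The stromal wells of plates 1 to 6 held 6, 13, 3, 0, 109 and 0 of them. On plate 5 they made up 25.95% of all Hox transcripts. Hoxc10, a gene of the hindlimb level, was at 35.9 CPM on plate 5 and at 0 to 2.84 CPM elsewhere. Hoxc8 was at 19.97 CPM there and at 0 to 0.849 CPM elsewhere, and Hoxc6 at 7.99 and at 0 to 1.99 CPM. The 3 genes shared this pattern. Within plate 5, iCAF-gated wells held 54 HoxC transcripts in 29 of 83 wells, wells of no subtype held 47 in 16 of 51 wells, pericyte-gated wells held 8 in 3 of 6 wells, and the 7 telocyte-gated and 4 Cxcl13-gated wells held 0. Of the plate 5 wells, 15 held at least 2 transcripts each of Myoc and Angptl7, genes of connective tissue cells of the eye and tendon, and no other plate had such a well. These 15 wells, 12 of them iCAF-gated, held 13 of the 109 HoxC transcripts, so most were in other wells. HoxC was found in 8 of the 15 (53.3%, 125 CPM). It was in 34.9% of iCAF-gated wells (78.3 CPM), 31.4% of wells of no subtype (123 CPM) and 50% of the 6 pericyte-gated wells (212 CPM). The other FibΔZeb1 plates held 13 and 0 HoxC transcripts. The dissection of the mouse of plate 5 and its other features cannot be told apart.

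**Figure D5:**
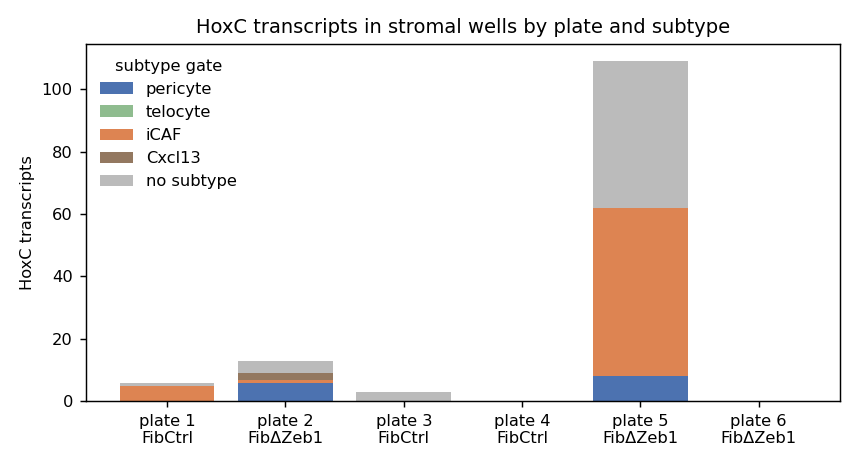
Number of HoxC transcripts in the stromal wells of each plate (x axis, with genotype), stacked by the stromal subtype of the well. Plate 5 holds 109, and plates 4 and 6 hold 0.

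Deletion of Zeb1, a repressor of epithelial genes, was compared over 3 FibCtrl and 3 FibΔZeb1 plates. Zeb1 itself was at 105, 91.0 and 76.5 CPM in FibCtrl stromal wells and at 55.8, 59.9 and 44.2 CPM in FibΔZeb1 stromal wells. The genotypes did not overlap (90.9 ± 14.3 against 53.3 ± 8.16, SD, n = 3), but transcripts of Zeb1 remained and the difference did not pass across all genes in edgeR's quasi-likelihood test (log2 difference -0.73, SE 0.25, adjusted p = 0.999). A 3′ tag outside the deleted exons can still be counted, and stromal cells without an active Col6a1 promoter keep Zeb1. The source of the remaining transcripts was not tested.

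No Hox gene passed between genotypes. Of 9567 genes tested by edgeR's quasi-likelihood test 0 passed (0%), with 129 at an unadjusted p under 0.05, and DESeq2 called 1 gene. Of the 9 Hox genes tested, 0 passed and 0 had an unadjusted p under 0.05. Their log2 differences (FibΔZeb1 over FibCtrl) ran from -0.58 to 0.87 with a median of -0.02, against 0.01 over all genes. Hoxd13 was at 49.3 ± 15.6 CPM in FibCtrl and at 29.2 ± 23.4 in FibΔZeb1 (SD, n = 3; log2 difference -0.58, SE 0.59). Without plate 6 its log2 difference was -0.22 (SE 0.36). Hoxa9 was at 19.0 ± 11.7 and 33.7 ± 14.1 CPM (log2 difference 0.87, SE 0.55) and Hoxa5 at 8.88 ± 5.29 and 16.7 ± 7.14 CPM (log2 difference 0.59, SE 0.51). Without stromal wells with epithelial genes, the log2 difference of Hoxa9 was 0.30 (SE 0.61) and that of Hoxa5 was 0.55 (SE 0.53), although the Hoxa5 level of plate 6 was 24.9 CPM with these wells and 9.97 CPM without them. Hoxa10 stood at 43.1 ± 14.1 and 39.5 ± 5.43 CPM (log2 difference -0.08, SE 0.26). Standard errors of 0.26 to 0.65 leave differences of that size undetectable with 3 mice. None of the 11 genes with at least 50 transcripts separated the genotypes without overlap, as 5.77% of the 10410 genes with that many transcripts did.

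The summed Hox level was 252 ± 24.1 CPM in FibCtrl and 276 ± 55.3 CPM in FibΔZeb1 (SD, n = 3), a difference of 24.0 CPM (two-sided exact permutation p = 0.6, adjusted 0.6). The share of paralogs 9 to 13 was 74.1%, 65.6% and 73.1% in FibCtrl and 68.3%, 64.3% and 68.0% in FibΔZeb1. It differed by -4.09 percentage points (exact permutation p = 0.3, adjusted 0.45), and 3 against 3 plates cannot go below 0.10. The difference was -8.07 points without stromal wells with epithelial genes (exact permutation p = 0.3), and it ran from -6.76 (without plate 3) to -2.52 (without plate 1) with a plate left out. The mix of subtypes moved with the plates. Pericyte-gated wells, low in Hoxd13, numbered 19, 4 and 12 of the 202, 28 and 90 stromal wells of FibCtrl plates and 47, 6 and 4 of the 222, 151 and 23 of FibΔZeb1 plates, while iCAF-gated wells numbered 62, 4 and 4 and 25, 83 and 4. The part of this mix in the genotype values was not tested. Zeb1 was lower in pericyte-gated wells (log2 difference -1.10, adjusted p = 0.023) and higher in iCAF-gated wells (1.16, adjusted p = 0.0070) by edgeR.

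Genes that work with Hox proteins or set Hox levels were described from lists. Over all genes, 6.91% passed as higher and 9.8% as lower in pericyte-gated wells, and 5.4% and 5.26% in iCAF-gated wells. In telocyte-gated wells these shares were 4.09% and 5.74%, and in Cxcl13-gated wells 2.42% and 4.58%. Of the TALE cofactors, Meis2 had a pooled stromal level of 104 CPM, above Meis1 (36.01), Pknox1 (31.2) and Meis3 (26.9). In pericyte-gated wells 0 of 8 tested were higher and 3 were lower, among them Meis2 (log2 difference -1.37) and Pknox2, with 1 against 263 transcripts. In iCAF-gated wells 3 of 7 were higher, among them Meis1 (75.4 against 23.6 CPM, log2 difference 1.71) and Meis2 (0.84), and 0 were lower. In telocyte-gated wells Meis1 and Meis2 were lower, with log2 differences of -1.58 and -1.02. In Cxcl13-gated wells 0 of 7 passed in either direction.

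Of the retinoic acid genes and other upstream regulators, 2 of 8 tested were higher and 3 were lower in pericyte-gated wells, where 6.91% and 9.8% of all genes were. Cyp26b1, which degrades retinoic acid, had 499 transcripts there against 155 in the others (496 against 23.5 CPM, log2 difference 4.13, SE 0.37, adjusted p = 4.0e-16) and was higher on 4 of 4 plates. Rarb, a retinoic acid receptor, was at 24.8 against 4.54 CPM (log2 difference 2.03). The retinoic acid producing enzymes were lower on each plate. Aldh1a3 had 1 against 665 transcripts, Aldh1a2 had 1 against 135, and Aldh1a1 had 10 against 279 (9.94 against 42.2 CPM, log2 difference -1.91). In iCAF-gated and Cxcl13-gated wells Cyp26b1 was lower, at 3.82 against 116 CPM (log2 difference -3.57) and 8.85 against 121 CPM (-3.75). The other stromal wells of both comparisons include the pericyte-gated wells, which were high in Cyp26b1. For iCAF-gated wells no value without them is given here. In telocyte-gated wells Cyp26b1 was lower too (-1.19), but with pericyte-gated wells left out its log2 difference was 1.20 and did not pass. The value in Cxcl13-gated wells was then -1.91 and did not pass either. Otherwise 1 of 7 passed as higher in Cxcl13-gated wells (Aldh1a3, 163 against 65.8 CPM, log2 difference 1.11), and none in iCAF-gated or telocyte-gated wells.

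Chromatin regulators of the Hox clusters, such as the Polycomb and Trithorax genes, had few calls among subtypes. Of 11 tested, 0 passed in pericyte-gated and in Cxcl13-gated wells, where 16.7% and 7% of all genes did. In telocyte-gated wells 0 of 9 passed (9.84% of all genes), and in iCAF-gated wells 1 of 10 did (Kdm6b, a histone H3 demethylase, log2 difference 1.30), against 10.7% of all genes. With lists of this size such counts are near the shares of all genes. Other transcription factors of gut mesenchyme are given against the same shares. In pericyte-gated wells 1 of 14 was higher (Prrx1, 203 against 66.3 CPM, log2 difference 1.70) and 5 were lower, among them Osr1 with 4 against 682 transcripts and Hand2 with 0 against 98 (at least 4.97-fold lower). In telocyte-gated wells 5 of 13 were higher, including Foxl1, a marker of the gate, and Tbx3 (178 against 63.6 CPM, 1.31), and Osr1 was lower. In iCAF-gated wells 3 of 14 were higher (Prrx1, Twist1, Twist2) and 6 were lower, among them Pitx1, a hindlimb and hindgut factor, at 42.1 against 215 CPM (-1.96). In Cxcl13-gated wells 4 of 13 were higher, among them Osr1 (224 against 64.2 CPM, 1.86) and Tcf21 (650 against 251 CPM, 1.47), and 2 were lower. In stromal against neutrophil wells 4 of 7 TALE, 5 of 6 upstream, 2 of 8 chromatin and 11 of 11 of these transcription factor genes were higher, and 2, 1, 1 and 0 were lower, where 49.5% of all genes were higher and 19.3% were lower. Between genotypes 0 of 7, 8, 11 and 14 genes tested passed.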

How the data were processed

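Sorted cells from 6 colon tumor samples, 3 per genotype, were measured by SORT-seq with molecular barcodes (CEL-Seq2 chemistry). Per the study's methods, the authors mapped the cDNA read to transcripts of GRCm38 using bwa, and the submitters' processing notes also name Cell Ranger 2.1.1. The deposited barcode tables hold whole counts of distinct molecular barcodes for each gene in each well. In the deposited transcript tables these became estimated counts, which the authors corrected for barcode collisions. The use of strand in counting was not given in the sources used here. Neither table was normalized or filtered on wells. The 36 Hox genes, the lists and the gates were chosen with earlier results of these data known.

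Spike-in RNA, at 7.85% to 18.6% of plate totals, was excluded. A well was named for the class with most of its 8 markers, at least 3 and a lead of at least 2. Stromal subtypes were named in the same way from 4 lists. Wells received 1 sorted cell, and doublets were not called. Transcripts were summed over the wells of a gate on each plate, rounded and tested with edgeR 4.0.16 (quasi-likelihood test, TMM, filterByExpr) under R 4.3.3, with Benjamini-Hochberg adjustment over all genes tested and a threshold of 0.05. Comparisons of gates had plate as a block, because both gates come from the same mouse, and used plates with at least 5 wells in each gate. Genotypes were compared without a block. DESeq2 1.42.0, barcode counts, no filter on low counts, other gates and leaving out each plate were tried as alternatives. Leaving out stromal wells with epithelial genes, leaving out pericyte-gated wells and the gate on epithelial genes were added after the data had been seen. Genes with at least 50 stromal transcripts and those that passed a test were named, as were all list genes that are given with a value. Ratios of counts have exact binomial intervals and levels have exact Poisson intervals at 95%. Summed values were tested by exact permutation, two-sided. The fits were tested on simulated data. Each plate is 1 mouse. For genotypes, p-values measure the spread between these plates. For gates, they measure how the difference within a plate varies from plate to plate. Python 3.11.15 with scipy 1.17.1 was used. The squamous and other epithelial gates could not be tested, with 4 wells each. Results for 1 cofactor gene are not reported here.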

Additional observations from a re-analysis of the deposited data

Results flagged for a closer look

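Hoxb13 had 377 transcripts in the 16 wells with more than 6000 genes, which the comparisons leave out (149 CPM, against 4.08 in stromal wells). These transcripts were in 7 of the 16 wells, on plates 3 to 6, and the 16 wells held 32589 to 742167 transcripts each. Of these 7 wells, 6 held all 12 epithelial genes and the other held 6, while the wells without Hoxb13 held 0 to 7. Hoxa9 had 250 transcripts (50.9 CPM) in the 973 wells with 10% or more mitochondrial transcripts, against 20.5 CPM in stromal wells. These wells were not gated by cell type. Hoxa11as, the antisense gene at Hoxa11 and no member of the Hox genes chosen, had 263 transcripts in stromal wells (31.6 CPM), against 224 of Hoxa11 itself. By plate its level was 31.4, 30.2, 34.1, 43.3, 17.6 and 58.0 CPM, and it was higher in telocyte-gated wells (edgeR log2 difference 0.98, adjusted p = 0.040). The genes overlap, and without strand in the counting their reads cannot be told apart.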

How the results depend on the processing

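Apart from single-gene values, 70 of 108 alternative values stayed near the reported one and on its side of the threshold. A further 7 kept the direction but no longer passed the threshold, 30 were counts of called genes that moved, and 1 reversed. The summed Hox difference between genotypes was 24.0 CPM and became -5.54 CPM without plate 5 (FibΔZeb1 replicate 2), with a range of -5.54 to 49.2 over plates left out. The stromal excess over neutrophil wells was 205 CPM without wells holding Ptprc or Epcam and 205 to 221 CPM with a plate left out, each at an exact permutation p of 0.0625, the smallest that 5 plates allow. The number of Hox genes called in stromal against neutrophil wells was 4. Without the filter on low counts it was 9 of 35 tested, all higher, where 46.9% of 17243 genes passed, 39.8% as higher. It was 0 without the plate block (0 were tested) and 0 without Ptprc or Epcam wells (1 was tested). It was 2 without stromal wells with epithelial genes, and 0 to 4 with a plate left out. Of the 7 called in pericyte-gated wells, DESeq2 gave 3, no plate block gave 3, and leaving out a plate gave 3 to 7. Of the 2 in telocyte-gated wells, DESeq2, a lead of 1 marker, and leaving out Ptprc or Epcam wells, epithelial-gene wells or pericyte-gated wells each gave 1, no plate block gave 0, and a plate left out gave 1 to 2. Of the 2 in iCAF-gated wells, DESeq2, no plate block, and leaving out epithelial-gene or pericyte-gated wells each gave 1, and a plate left out gave 1 to 4. The 1 in Cxcl13-gated wells became 0 without pericyte-gated wells, and 0 to 1 with a plate left out. The cause was not tested. Uncalled genotype differences changed sign. Over plates left out, Hoxa10 ran from -0.2846 to 0.1569, Hoxa11 from -0.3482 to 0.2986, Hoxb2 from -0.3423 to 0.259, Hoxb3 from -0.3412 to 0.216 and Hoxd11 from -0.2378 to 0.4817. Hoxa11 was -0.0188 with a lead of 1 marker, -0.0296 without Ptprc or Epcam wells and -0.208 without epithelial-gene wells. Hoxb2 was 0.1211 and 0.0468 without these wells, and Hoxd11 was 0.0018 with a lead of 1 marker. Cyp26b1 in telocyte-gated wells became 1.20 without pericyte-gated wells. No paired analysis was possible because genotypes were compared between different mice, whose replicate numbers follow accession order. Fits between gates had the plate, that is the mouse, as a block. The looser gate allowed a test of other epithelium on 2 plates only.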
